A study of Mus musculus with 6 samples.

Results

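Chemokines are small secreted proteins that bind receptors of the G protein-coupled class on leukocytes and draw these cells along a gradient. CC and CXC chemokines are named for the spacing of their first cysteines, and their receptors are named after the ligands they bind. Atypical receptors bind chemokines without the usual G protein signal and remove or transport them. In the testis, macrophages of the interstitium and of the tubule wall make up most resident leukocytes, and chemokines are among the signals known to recruit monocytes and other leukocytes into the tissue.

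The genes described here were taken by symbol, as chemokine ligands, chemokine receptors and atypical chemokine receptors carrying a standard Ccl, Cxcl, Cx3cl, Xcl, Ccr, Cxcr, Cx3cr, Xcr or Ackr symbol, together with Pf4, Ppbp and Ccrl2. They came to 59 genes on 69 probes, of 19751 named genes and 39429 probes on the array. By role they were 22 CC ligands, 13 CXC ligands, 2 other ligands (Cx3cl1 and Xcl1), 9 CC receptors, 6 CXC receptors, 2 other receptors (Cx3cr1 and Xcr1) and 5 atypical receptors. The symbol rule used no measured value, but the genes and lists were chosen with earlier results of these data known.

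Whole testes of 3 male mice with the genotype TAp73 KO were compared with those of 3 wild type males. All 6 animals were C57BL/6J and 10 weeks old, and each had 1 single-colour Agilent array. TAp73 is the form of the p53 relative p73 that carries a transactivation domain, made from the gene Trp73. The labels do not describe the allele, and they restrict its loss to no cell type. The 3 tested Trp73 probes were lower in every array labelled TAp73 KO, with log2 differences of -0.99, -3.21 and -6.01 (limma adjusted p = 0.0104, 0.00213 and 0.00369). A second deposited table of processed values carries the opposite labels. Each scanner array labelled TAp73 KO matched a column of that table labelled wild type and each wild type array matched a TAp73 KO column (r = 0.97 to 0.99 over probes), while r was -0.40 to -0.27 with the column of the same label. The scanner files and their labels were used, and the genotypes would change places under the labels of that table. All 16 germ cell genes checked were well above background on all 6 arrays.

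Signals are given as a percent of the 75th percentile of the processed signal on the same array, called the scaled signal here. That percentile was 4137 to 5160 units in TAp73 KO testes and 5185 to 5688 units in wild type testes. Differences are log2 values of TAp73 KO minus wild type. A gene was called when its adjusted p in limma, corrected by the Benjamini-Hochberg method over all 31801 tested probes, was under 0.05. The signal of one probe cannot be set against that of another, so only differences within a probe are compared.

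Of the 59 genes, 43 had a probe that could be tested, meaning one that exceeded background clearly on 3 or more of the 6 arrays. Their probes were well above background on all 6 arrays for 35 genes. In the family, 4 genes were lower in TAp73 KO testes and 0 were higher in limma, all of them ligands: Ccl6, Ccl9, Cxcl1 and Cxcl14. The called genes made up 9.3% of the 43. Over all 16947 measured genes, 3.53% were called lower and 0.218% were called higher. Counted by probe, 4 of 51 tested probes of the family were called lower and 0 higher, beside 2.64% lower, 0.248% higher and 2.88% either way of all tested probes. With no correction for multiple tests, at p under 0.05, 13 of the 43 genes were lower and 3 higher, beside 13.6% lower and 2039 of 16947 higher among all genes. The filter on dim probes could keep a gene through its brighter group alone, so these shares describe the tested genes and not the whole family. The median difference over the 43 was -0.22, with 29 genes below 0 and 14 above, while it was 0.05 over all measured genes; with normexp background correction the median of the 43 became 0.30 and 0 genes were called.

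**Figure D1:**
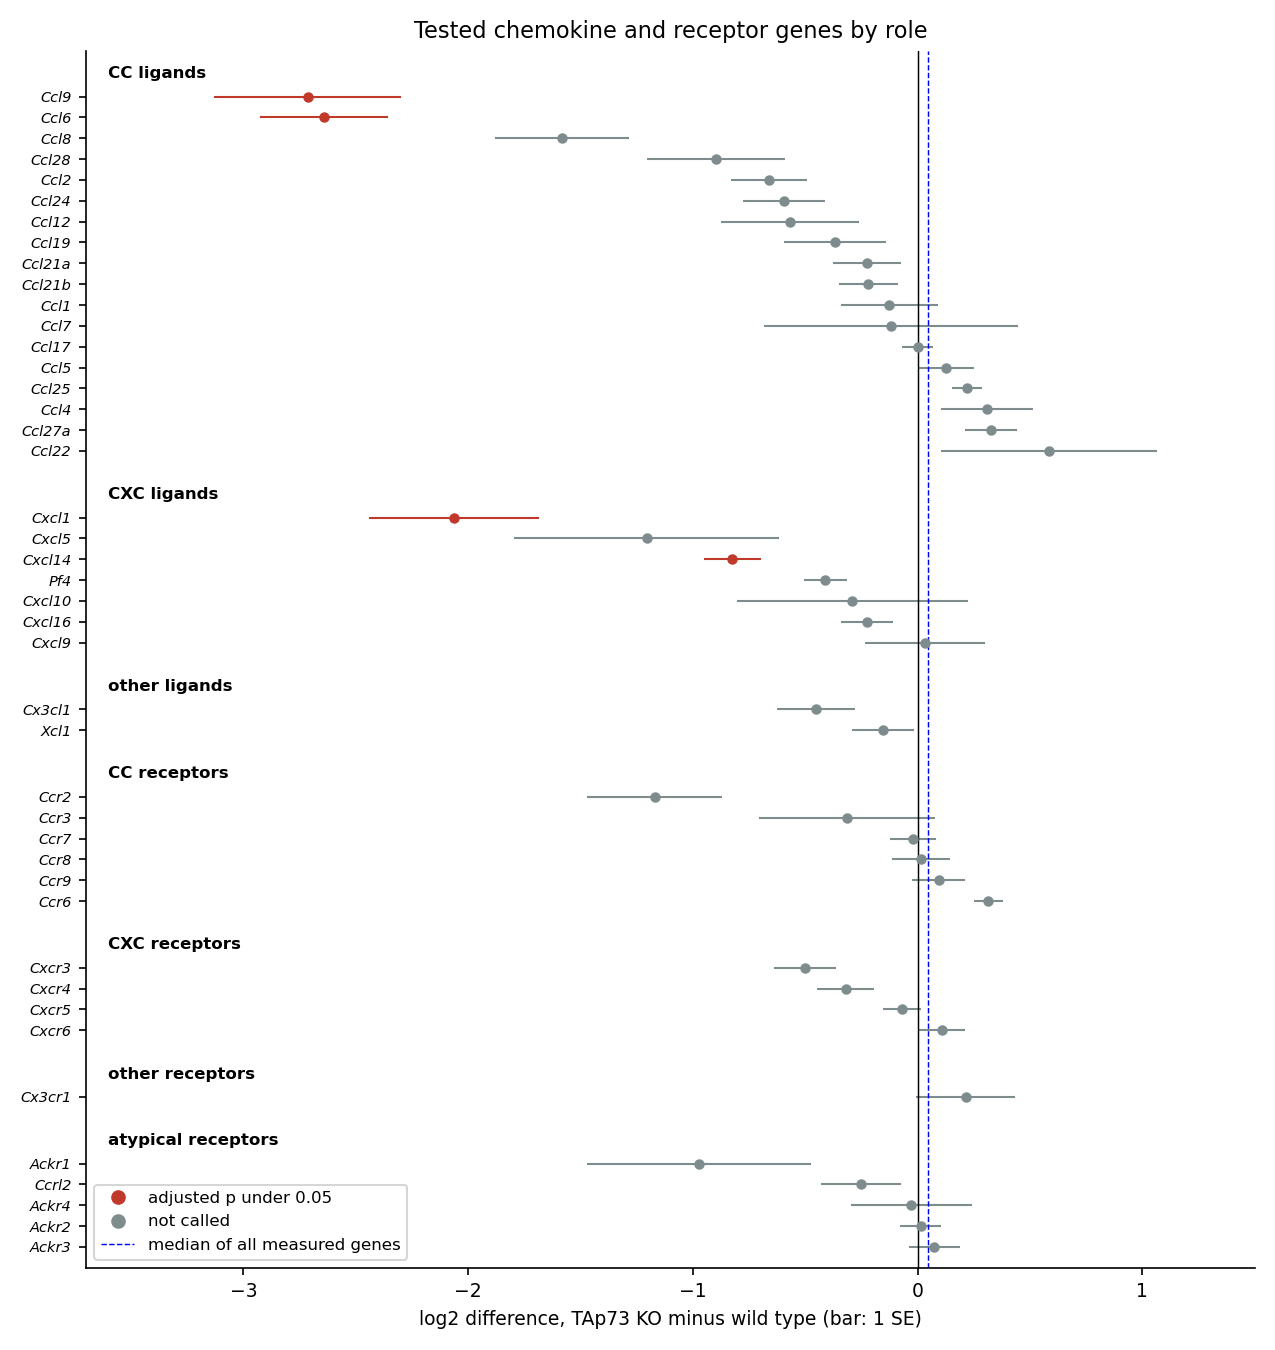
Log2 difference of TAp73 KO minus wild type (horizontal axis) for each of the 43 tested chemokine and receptor genes, grouped by role, with bars of 1 SE. The 4 genes called lower are red, the others are grey, and the dashed line is the median of all measured genes at 0.05.

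The median difference of the CC ligands was -0.22, or 0.14 under normexp. Of the 18 tested CC ligands, 2 (11.1%) fell and 0 rose, beside 3.53% of all genes called lower. The 2 were Ccl6 and Ccl9, myeloid chemokines that bind the receptor Ccr1 and attract monocytes and macrophages in the mouse. Ccl6 read 1.10%, 0.956% and 1.26% in TAp73 KO testes, against 8.55%, 4.35% and 8.66% in wild type testes. Every TAp73 KO array lay far below the lowest wild type array, which was replicate 2. Ccl6 was thus 6.24-fold lower (log2 difference -2.64, SE 0.29, n = 3 each, limma adjusted p = 0.0124). Ccl9 read 0.985%, 0.806% and 0.664% in TAp73 KO testes, against 10.4%, 3.91% and 3.65% in wild type testes. The groups stood apart, and wild type replicate 1 was the highest array by a wide margin. Ccl9 was 6.56-fold lower (log2 difference -2.71, SE 0.42, n = 3 each, limma adjusted p = 0.0307).

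The arrays were on 2 slides that each held both genotypes. Within slide 1, with 2 arrays per genotype, the log2 difference was -3.07 for Ccl6 and -2.79 for Ccl9. In the pair on slide 2 it was -1.78 for Ccl6 and -2.56 for Ccl9. With slide as a block Ccl6 stayed called (limma adjusted p = 0.0365) and Ccl9 did not (0.0616). The call of Ccl6 was lost without TAp73 KO replicate 2 (limma adjusted p = 0.0645), TAp73 KO replicate 3 (0.0564) or wild type replicate 3 (0.0506). That of Ccl9 was kept without wild type replicate 1 (limma adjusted p = 0.0173) and lost without any of the other 5 arrays (0.0644 to 0.119). In bulk tissue, fewer cells of a type and less RNA per cell cannot be told apart for these or any genes below.

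Ccl6 and Ccl9 lie next to each other on chromosome 11, with no coding gene between them, in the order Ccl5, Ccl9, Ccl6, Ccl3, Ccl4. None of their tested neighbours was called. Ccl5, a T cell and monocyte attractant, differed by 0.13 and Ccl4, an attractant of monocytes and T cells, by 0.31, with overlapping groups for both, and Ccl3 was not tested because it was well above background on 0 TAp73 KO arrays and 1 wild type array. The promoters of the 2 genes that fell are shown because they are neighbours with differences of like size. They run from 250 bases before the transcript start to 50 bases after it (RefSeq, GRCm38.p6), at chr11:83593038-83593337 for Ccl6 and chr11:83578587-83578886 for Ccl9, both on the minus strand. Capitals mark matches to the motifs listed further on.
Ccl6: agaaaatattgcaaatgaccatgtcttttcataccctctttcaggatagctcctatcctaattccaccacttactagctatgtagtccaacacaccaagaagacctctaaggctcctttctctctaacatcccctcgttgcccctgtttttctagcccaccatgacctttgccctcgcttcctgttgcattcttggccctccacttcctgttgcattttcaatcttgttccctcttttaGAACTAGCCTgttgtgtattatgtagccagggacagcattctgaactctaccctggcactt
Ccl9: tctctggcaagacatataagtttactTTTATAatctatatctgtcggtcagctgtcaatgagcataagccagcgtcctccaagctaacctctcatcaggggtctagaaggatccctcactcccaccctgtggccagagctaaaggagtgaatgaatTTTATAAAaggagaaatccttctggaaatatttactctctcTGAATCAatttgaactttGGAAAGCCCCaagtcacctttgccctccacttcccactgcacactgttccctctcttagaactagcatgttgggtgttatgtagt
In these windows Ccl6 held a p53 family half-site at position -11. Ccl9 held TATAAA matches at -224, -94 and -92, an AP-1 match at -53 and a κB match at -35, and no p53 family half-site. Positions count from the transcript start, with negative numbers before it.

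None of the other 16 tested CC ligands passed the test. The nearest was Ccl8, a ligand of Ccr2 and Ccr8 that attracts monocytes and T cells. It read 13.6%, 13.8% and 9.71% in TAp73 KO testes, against 32.9%, 26.5% and 56.3% in wild type testes. The groups did not overlap, and the difference was -1.58 (SE 0.30, limma adjusted p = 0.0518). Ccl2, the main monocyte attractant and also a ligand of Ccr2, was printed in 10 spots per array. It read 1.93%, 1.69% and 1.61% in TAp73 KO testes, against 2.15%, 3.16% and 3.08% in wild type testes. These values did not overlap either, although wild type replicate 1 was close to TAp73 KO replicate 1 (log2 difference -0.66, limma adjusted p = 0.0996). Without wild type replicate 1 the adjusted p of Ccl2 was 0.0386 in limma, and under normexp its sign turned (0.24).

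Ccl24, a ligand of Ccr3 that attracts eosinophils, read 3.30%, 3.78% and 2.66% in TAp73 KO testes and 4.31%, 6.04% and 4.38% in wild type testes. Its groups did not overlap and its difference was -0.59 (limma adjusted p = 0.142), or 0.13 under normexp. Ccl28, a mucosal chemokine that binds Ccr10, read 7.07%, 3.06% and 5.58% in TAp73 KO testes and 8.18%, 10.6% and 8.97% in wild type testes. The spread among the TAp73 KO arrays was wide, and the difference was -0.90 (limma adjusted p = 0.167). Ccl25, which draws thymocytes and gut lymphocytes through Ccr9, ran the other way. It read 82.9%, 87.7% and 84.3% in TAp73 KO testes and 74.4%, 72.7% and 71.8% in wild type testes. Its groups did not overlap, but a difference of 0.22 was not called (limma adjusted p = 0.137). Before scaling its processed signals were 3628 to 4277 units in TAp73 KO testes and 3771 to 4231 units in wild type testes, which overlap.

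Ccl27a and Ccl21b have near-identical copies in the mouse genome, so their probes may read more than 1 gene. The probe of Ccl27a, a skin T cell attractant, was saturated on 2 TAp73 KO arrays and 3 wild type arrays, and its difference of 0.33 was not called (limma adjusted p = 0.181). All 4 tested Ccl27a probes had positive differences, 0.08 to 0.33. A second probe (0.235) was saturated on 2 TAp73 KO arrays and 3 wild type arrays as well. The probes without saturation gave only 0.099 and 0.082. Under quantile normalization the first probe gave 0.076. Ccl21b, a lymph node chemokine that binds Ccr7, was saturated on 1 wild type array and differed by -0.22, and its paralogue Ccl21a differed by -0.22, both with overlapping groups. Ccl19, the other Ccr7 ligand, was lower on average on all 3 of its probes, at -0.37 to -0.26, and none was called. Differences of the remaining CC ligands ran from -0.57 for Ccl12 to 0.58 for Ccl22, a T cell attractant, with overlapping groups for each.

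**Figure D2:**
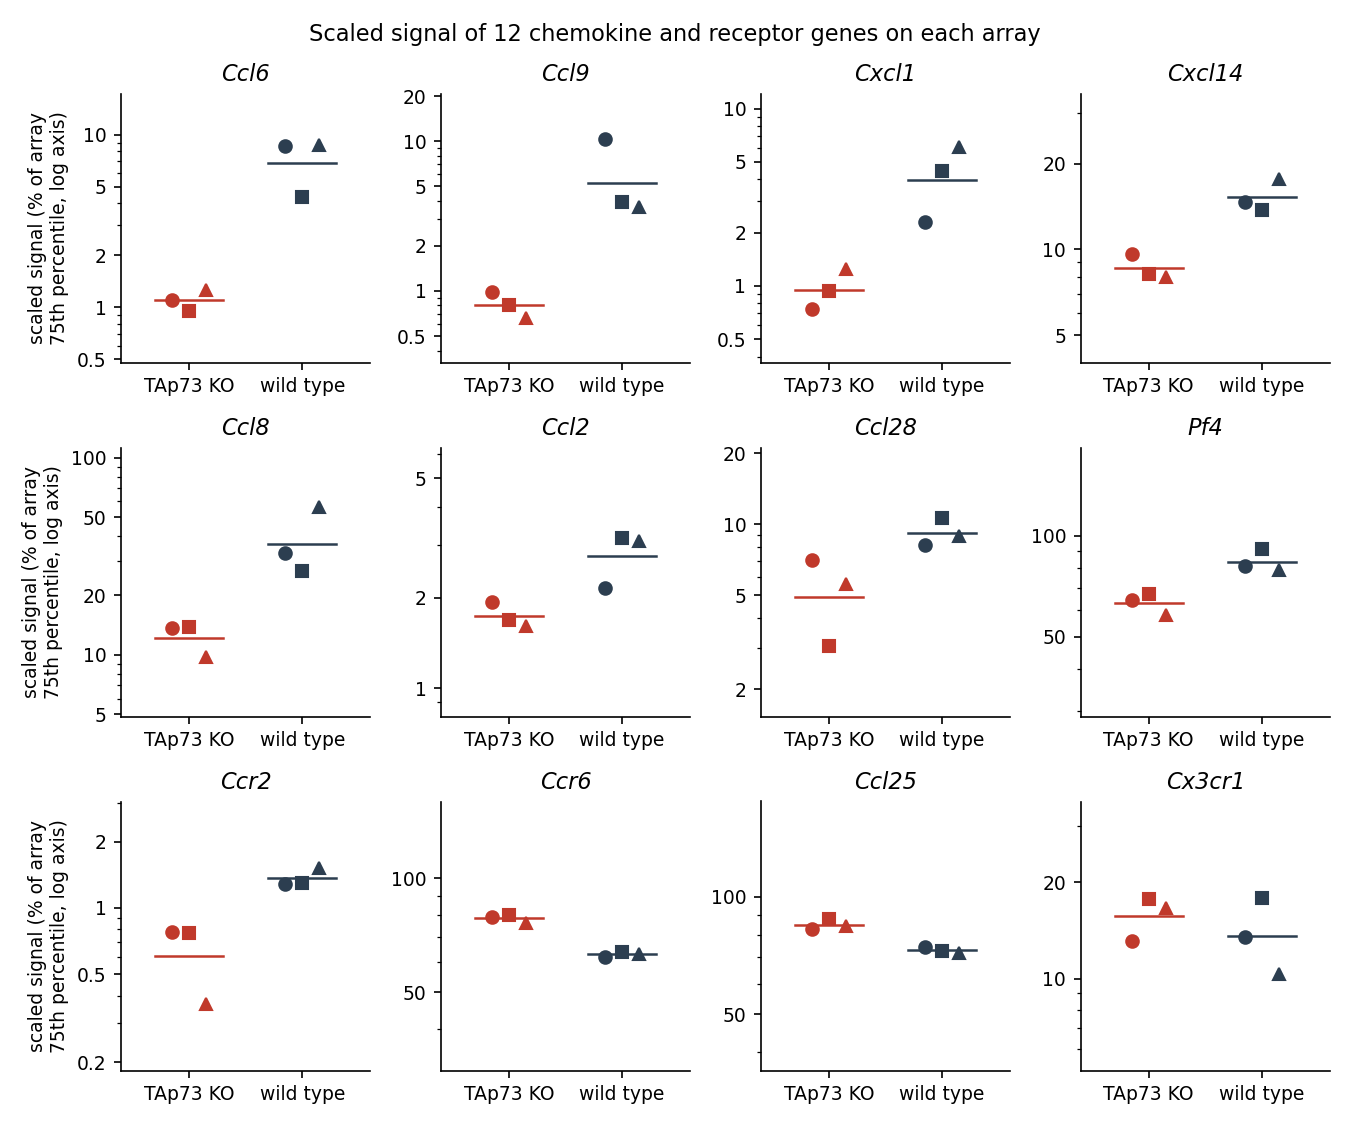
Scaled signal of 12 chemokine and receptor genes on each array, as a percent of the array's 75th percentile on a log axis, with TAp73 KO arrays in red on the left of each panel and wild type arrays in blue on the right. Circles, squares and triangles are replicates 1, 2 and 3, which share only a number between genotypes, and horizontal lines are geometric means. Ccl6 lay at 0.956% to 1.26% in TAp73 KO testes and at 4.35% to 8.66% in wild type testes, whereas the Cx3cr1 groups overlapped.

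Among the CXC ligands, 2 of 7 tested genes (28.6%) fell and 0 rose, beside 3.53% of all genes called lower. The median difference was -0.41, or 0.13 under normexp. Cxcl1, a neutrophil attractant that acts through Cxcr2, read 0.739%, 0.939% and 1.24% in TAp73 KO testes, against 2.30%, 4.47% and 6.08% in wild type testes. The groups did not overlap and wild type replicate 1 was the nearest to the TAp73 KO arrays. Cxcl1 was 4.17-fold lower (log2 difference -2.06, SE 0.38, n = 3 each, limma adjusted p = 0.0492). Cxcl14, a chemokine made by many epithelia and stroma, attracts monocytes and immature dendritic cells. It read 9.62%, 8.20% and 8.01% in TAp73 KO testes, against 14.6%, 13.7% and 17.6% in wild type testes. The groups stood apart with little spread inside each. Cxcl14 was 1.77-fold lower (log2 difference -0.82, SE 0.13, n = 3 each, limma adjusted p = 0.0304).

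On slide 1, Cxcl1 differed by -2.17 and Cxcl14 by -0.85, and the slide 2 pair gave -1.85 for Cxcl1 and -0.77 for Cxcl14. Both calls were lost with slide as a block (limma adjusted p = 0.0896 for Cxcl1 and 0.0554 for Cxcl14). That of Cxcl1 was lost under quantile normalization (0.0528) and median scaling (0.0548) too. The call of Cxcl1 was kept without wild type replicate 1 (limma adjusted p = 0.0281) and lost without any of the other 5 arrays (0.0988 to 0.182). That of Cxcl14 was kept without TAp73 KO replicate 1 (limma adjusted p = 0.0461) and lost without any of the other 5 (0.0719 to 0.121). None of the 4 called genes thus kept its call through all 6 omissions.

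The promoter of Cxcl1 is shown because it held the only κB match read on both strands among the called genes. It lies on the plus strand at chr5:90890995-90891294 (RefSeq, GRCm38.p6), over the same 300 bases around the start, with motif matches in capitals.
Cxcl1: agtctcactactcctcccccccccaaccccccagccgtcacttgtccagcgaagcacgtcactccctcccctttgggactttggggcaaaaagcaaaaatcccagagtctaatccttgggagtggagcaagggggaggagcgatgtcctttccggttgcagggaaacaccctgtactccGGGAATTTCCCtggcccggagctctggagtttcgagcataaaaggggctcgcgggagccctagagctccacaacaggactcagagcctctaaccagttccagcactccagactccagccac
The κB match starts at -71 on the plus strand and at -70 on the minus strand. The letters TATAAA did not occur in this window. The Cxcl14 window held GGGCGG only, at 13, 17 and 25 after the start.

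Motifs were searched on both strands of the 46 chemokine and receptor genes that had a RefSeq promoter, a group that held the 4 called genes. A gene of the 46 counted when any of its promoters matched, while the share of all was counted per promoter. Genes with several promoters had more chances to match, so the counts and shares below are not like for like. A κB match was found in 11 of the 46 genes and in Ccl9 and Cxcl1 among the called genes, and in 4.5% of all 32851 promoters of this length. TATAAA was found in 14 of the 46 and in 13.6% of all promoters. The AP-1 motif TGANTCA was found in 8 of the 46 and in 7.8% of all. The p53 family half-site was found in 5 of the 46 and in 8.4% of all. GGGCGG was found in 10 of the 46 and in 35.7% of all, the PU.1 motif GAGGAAGT in 2 and 3.2%, and the CREB motif TGACGTCA in 0 and 1.8%. A TATAAA match read on both strands can overlap itself, as in Ccl9, and the κB match of Cxcl1 does so as well. These are matches of letters, with no binding measured.

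Pf4, the CXC chemokine stored in platelet granules, read 64.4%, 67.1% and 57.9% in TAp73 KO testes, against 81.4%, 91.4% and 78.9% in wild type testes. The groups did not overlap, and the difference of -0.41 was not called (limma adjusted p = 0.0834). Of 13 measured platelet and red cell genes, 1 fell, the platelet glycoprotein Gp1bb (-0.97, limma adjusted p = 0.00824; 0 called without TAp73 KO replicate 2), and 0 rose. That was 7.69% of the 13, beside 3.53% of all genes called lower. Gp9 was well above background on no array. The summed scaled signal of the list was 921% to 1567% in TAp73 KO testes and 1459% to 1964% in wild type testes. Its brightest gene was the haemoglobin gene Hba-a2, so the sum weighs a red cell gene most. The part of platelets or red cells in the Pf4 difference was not tested.

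The other tested CXC ligands overlapped between genotypes. Cxcl16, a membrane-bound ligand of Cxcr6, read 8.56%, 6.59% and 6.67% in TAp73 KO testes and 8.58%, 8.53% and 8.21% in wild type testes (log2 difference -0.23). TAp73 KO replicate 1 was at the wild type level. Cxcl5, a neutrophil attractant, differed by -1.21 with an SE of 0.59 and was well above background on 1 TAp73 KO array and 2 wild type arrays. The interferon-induced ligands of Cxcr3 differed by -0.29 for Cxcl10 and 0.03 for Cxcl9.

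Both other ligands had overlapping groups. Cx3cl1, a membrane-anchored chemokine that holds monocytes, read 34.1%, 32.0% and 30.4% in TAp73 KO testes, against 33.6%, 52.8% and 47.8% in wild type testes. Wild type replicate 1 lay at the TAp73 KO level and the other 2 were above it (log2 difference -0.45, limma adjusted p = 0.201). Xcl1, which attracts cross-presenting dendritic cells, differed by -0.15.

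The 6 tested CC receptors described here gave 0 calls in limma, with a median difference of -0.003 that became 0.45 under normexp. At an unadjusted p under 0.05, 1 was lower and 1 higher, beside 13.6% lower and 2039 of 16947 higher among all genes. Ccr2, the receptor that brings monocytes out of the bone marrow, read 0.782%, 0.769% and 0.366% in TAp73 KO testes, against 1.28%, 1.30% and 1.52% in wild type testes. The groups did not overlap, TAp73 KO replicate 3 was the lowest, and 2 of the 3 TAp73 KO arrays were well above background (log2 difference -1.17, SE 0.30, limma adjusted p = 0.102), and under normexp its sign turned (0.50). Ccr3, the eosinophil receptor, lies next to Ccr2 on chromosome 9 with no coding gene between and differed by -0.31 with overlapping groups.

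Ccr6, a receptor of B cells and some T cells that has also been described on sperm, read 79.1%, 79.9% and 76.2% in TAp73 KO testes, against 62.0%, 63.8% and 63.2% in wild type testes. Every TAp73 KO array was above every wild type array. The difference of 0.31 was not called (SE 0.07, limma adjusted p = 0.065), and it was called under median scaling (0.38, limma adjusted p = 0.0476) and under quantile normalization (0.34, limma adjusted p = 0.0407). Before scaling its processed signals were 3305 to 4079 units in TAp73 KO testes and 3310 to 3526 units in wild type testes, which overlap. Ccr7, the homing receptor of dendritic cells and T cells, differed by -0.02, Ccr8 by 0.015 and Ccr9 by 0.09, each with overlapping groups.

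The 4 tested CXC receptors gave 0 calls in limma. At an unadjusted p under 0.05, 2 of them were lower, beside 13.6% of all genes. Cxcr3, a receptor of activated T cells, read 1.07%, 1.07% and 0.930% in TAp73 KO testes and 1.24%, 1.41% and 1.72% in wild type testes. Its groups did not overlap (log2 difference -0.50, limma adjusted p = 0.116), and under normexp the sign turned (0.64). Cxcr4, which retains stem cells and leukocytes in their niche, read 2.95%, 2.69% and 2.48% in TAp73 KO testes and 2.86%, 3.72% and 3.59% in wild type testes. TAp73 KO replicate 1 lay above wild type replicate 1 (log2 difference -0.32, limma adjusted p = 0.208, and 0.40 under normexp). Cxcr5, a B cell receptor, differed by -0.07, and the 2 probes of Cxcr6 by 0.11 and -0.08, the only gene of the family with several tested probes whose signs differed.

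Cx3cr1, the receptor of resident macrophages and patrolling monocytes, read 13.1%, 17.7% and 16.6% in TAp73 KO testes, against 13.5%, 17.9% and 10.3% in wild type testes. The genotypes overlapped fully (log2 difference 0.21, limma adjusted p = 0.567), and its second probe gave 0.27. The atypical receptors gave 0 calls among 5 tested genes in limma, also at an unadjusted p under 0.05. Ackr1, which carries chemokines across venules, read 0.498%, 0.630% and 0.447% in TAp73 KO testes, against 2.35%, 0.702% and 0.646% in wild type testes. The groups did not overlap, but wild type replicate 1 alone made most of the mean difference (-0.97, SE 0.50, limma adjusted p = 0.278). The scavenger receptors Ackr3 and Ackr2 differed by 0.08 and 0.01, Ackr4 by -0.03 and Ccrl2, which presents chemerin, by -0.25.

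In all, by scaled signal, 12 of the 43 tested genes (27.9%) had every TAp73 KO array below every wild type array. Another 2, Ccr6 and Ccl25, had every TAp73 KO array above. Over all measured genes, 16.0% were separated in the first direction and 19.2% in the second. By role the first direction held for 6 of 18 CC ligands, 3 of 7 CXC ligands, 1 of 6 CC receptors, 1 of 4 CXC receptors and 1 of 5 atypical receptors.

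Set side by side, ligands and their receptors often differed by unlike amounts. Ccr2 had -1.17 and its 4 ligands had -1.58 for Ccl8, -0.66 for Ccl2, -0.57 for Ccl12 and -0.12 for Ccl7, none of them called. All but Ccl8 were above 0 under normexp (0.50 for Ccr2, 0.24 for Ccl2, 0.30 for Ccl12 and 0.73 for Ccl7). Ccr7 had -0.02 beside -0.37 for Ccl19 and -0.22 for Ccl21a, and Cx3cr1 had 0.21 beside -0.45 for Cx3cl1. The receptors of the 3 ligands with the largest falls could not be set beside them, because Ccr1 and Cxcr2 were well above background on no array.

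Of the 16 genes that could not be tested, 11 were well above background on no array: Ccl11, Ccl26, Ccr1, Ccr10, Cxcl13, Cxcl15, Cxcl2, Cxcl3, Cxcr2, Ppbp and Xcr1. This bounds their signal on these probes and does not show that the transcripts were absent. Ccl20, Ccl3 and Cxcl17 were well above background on 1 wild type array and 0 TAp73 KO arrays, and Cxcr1 on 1 array of each genotype. These counts include flagged spots, and the values of Ccl20 on wild type replicate 1 and Cxcl17 on wild type replicate 3 were dropped as flagged. The remaining wild type values were 5.371 and 5.631 units for Ccl20 and 11.22 and 5.458 units for Cxcl17. They lay below the highest TAp73 KO values, 13.35 and 16.79 units, so no wild type signal is read from these probes. By chromosome, 14 family members lay on chromosome 11, 13 on chromosome 9 and 12 on chromosome 5, and these 3 held 2, 0 and 1 of the called genes, with Cxcl14 on chromosome 13. The 4 members on chromosome 4, where Trp73 itself lies, gave 0 calls.

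Downstream of the receptors, 5 of 104 measured genes of chemokine signalling fell and 0 rose (4.81%, beside 3.53% of all genes), with a median of -0.09 that became 0.17 under normexp. They were Coro1a, an actin regulator of leukocytes (-0.55, limma adjusted p = 0.0199), Rgs2, a regulator of G protein signalling (-0.57, 0.0318), the kinase Prkx (-0.54, 0.0391), the inhibitory G protein subunit Gnai1 (-0.48, 0.0446) and the cytokine receptor kinase Jak2 (-0.45, 0.0446). Of these 5, Coro1a and Prkx stayed called without wild type replicate 1, and 0 stayed called without any of the other 5 arrays; a different gene was called without TAp73 KO replicate 1 (Rgs18) and without TAp73 KO replicate 3 (Ncf1), both named after their values were seen. With slide as a block only Rgs2 was called.

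A further list, called chemokine inducers here, held cytokines, cytokine and Toll-like receptors, an adaptor and transcription regulators. The name is a label, and the effect of each gene on chemokines was not tested. In this list 9 of 29 measured genes fell and 0 rose. That was 31.0%, beside 3.53% of all genes called lower, with a median of -0.40 that became 0.16 under normexp. Nfkb2 is a subunit of the noncanonical NF-κB pathway. Before scaling it read 444, 355 and 350 processed units in TAp73 KO testes, against 1024, 917 and 1087 units in wild type testes. Its groups stood apart, and after scaling the log2 difference was -1.15 (SE 0.08, limma adjusted p = 0.00369). The Nfkb2 partner Relb was among the genes that fell. The receptors Il17ra (-1.14, limma adjusted p = 0.00778), Il1r1 (-1.14, 0.0102), Tnfrsf1b (-1.19, 0.0193), Il10ra (-0.79, 0.0198) and Tnfrsf1a (-0.55, 0.0382) fell too, although Il17ra (0.16) and Tnfrsf1b (0.28) turned sign under normexp. Under normexp without TAp73 KO replicate 1, a setting chosen after seeing the data, the difference was -0.41 for Il17ra and -0.43 for Tnfrsf1b. Nfkb2 and Il17ra stayed called whichever array was left out (limma adjusted p = 0.0163 to 0.0312 and 0.0264 to 0.0459). The cytokines Tnf, Il6 and Ifng were well above background on no array. Leaving out 1 array left 4 calls without TAp73 KO replicate 1, 2 without TAp73 KO replicate 2 or 3, 5 without wild type replicate 1, 2 without wild type replicate 2 and 3 without wild type replicate 3. With slide as a block 4 stayed called (Nfkb2, Il17ra, Il1r1 and Tnfrsf1b), while Il10ra (limma adjusted p = 0.0579) and Tnfrsf1a (0.0829) did not, and 0 were called under normexp or with a replicate block.

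**Figure D3:**
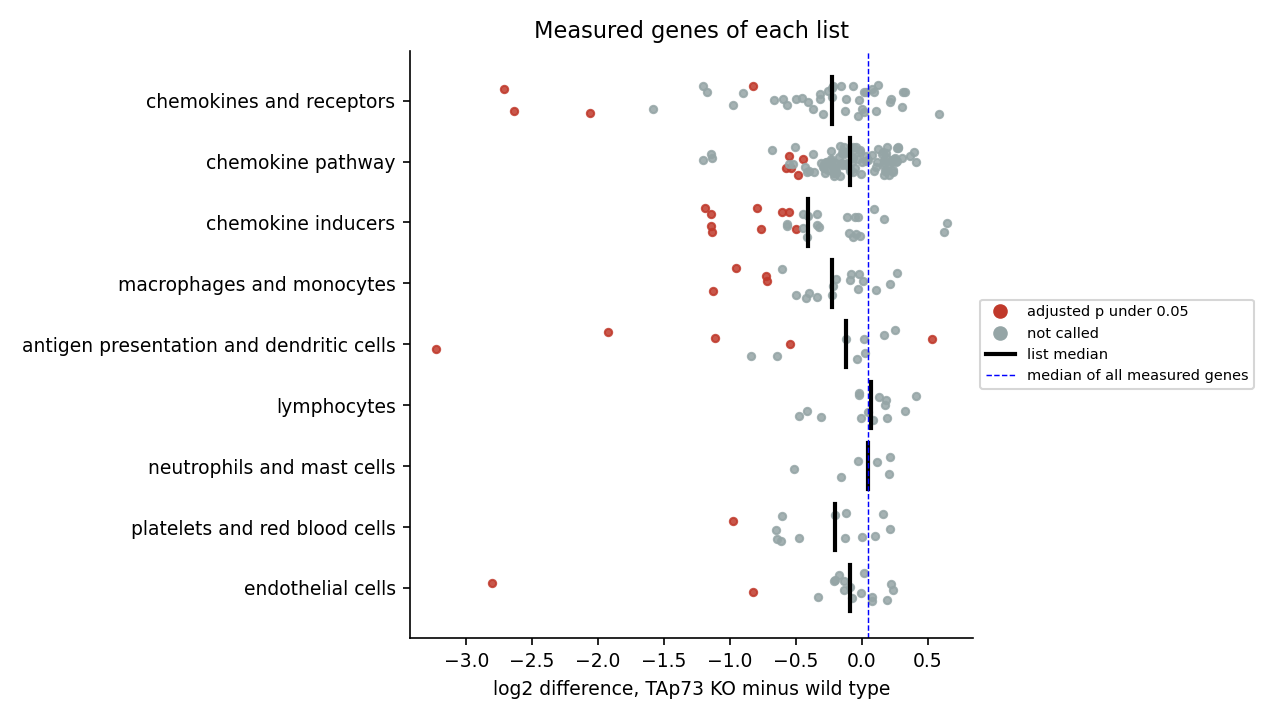
Log2 difference of TAp73 KO minus wild type (horizontal axis) for every measured gene of the family and of 8 other gene lists, with called genes in red, the others in grey, each list's median as a black bar and the median of all measured genes as a dashed line. The chemokine and receptor list had a median of -0.22 and the list of inducers one of -0.40, which became 0.30 and 0.16 under normexp, while lymphocyte genes had a median of 0.07.

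Markers of leukocytes are given list by list. Of all measured genes, 3.53% were called lower and 0.218% higher. The share called lower was 20% for macrophages and monocytes and 30.8% for antigen presentation and dendritic cells. It was 0% for lymphocytes and for neutrophils and mast cells. Of 20 measured macrophage and monocyte genes, 4 fell (Mpeg1, Cd14, C1qc and Lyz1) and 0 rose, with a median of -0.22. Summed over the 19 of them not saturated on any array, the scaled signal was 1326% to 1456% in TAp73 KO testes and 1491% to 1724% in wild type testes; such sums weigh the brightest probes most, here Itgam. Of 13 genes of antigen presentation and dendritic cells, 4 fell (Cd83, Itgax, Cd74 and Cd86, by 3.23, 1.93, 1.12 and 0.54 on the log2 scale) and Flt3 rose (0.54), with a median of -0.12 that became 0.07 under normexp. Over the 12 unsaturated genes the summed scaled signal was 475% to 527% in TAp73 KO testes and 555% to 691% in wild type testes. The macrophage count was 1 to 4 when single arrays were left out. It was 1 without TAp73 KO replicate 2 or wild type replicate 2, and 2 without TAp73 KO replicate 3 or wild type replicate 3. Without wild type replicate 1 it was 4, with Lyz1 lost and Tyrobp gained, a gene named after its values were seen. The dendritic count was 2 to 3, being 2 without TAp73 KO replicate 2 or 3. The call of Flt3 was lost whichever array was left out.

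Of 14 lymphocyte genes, 0 were called in limma, with a median of 0.07. At p under 0.05 without correction 1 was lower and 2 higher, beside 13.6% lower and 2039 of 16947 higher among all genes. Of 6 measured neutrophil and mast cell genes, 0 were called, also at an unadjusted p under 0.05, with a median of 0.04, and S100a8, S100a9, Retnlg, Ltf and Ms4a2 were well above background on no array. The summed scaled signal of lymphocyte genes was 734% to 836% in TAp73 KO testes and 754% to 938% in wild type testes, and that of the 5 unsaturated neutrophil and mast cell genes was 187% to 215% in TAp73 KO testes and 193% to 362% in wild type testes, so both overlapped. Of 17 endothelial genes, the receptors Robo4 and Flt4 fell (-2.80 and -0.82) and 0 rose, with a median of -0.09 (0.15 under normexp) and a summed scaled signal of 742% to 797% in TAp73 KO testes and 780% to 820% in wild type testes. The endothelial share called lower was 11.8%, beside 3.53% of all measured genes. Without TAp73 KO replicate 2 or 3 the endothelial count was 1. The part of cell numbers in the chemokine differences was not tested.

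**Figure D4:**
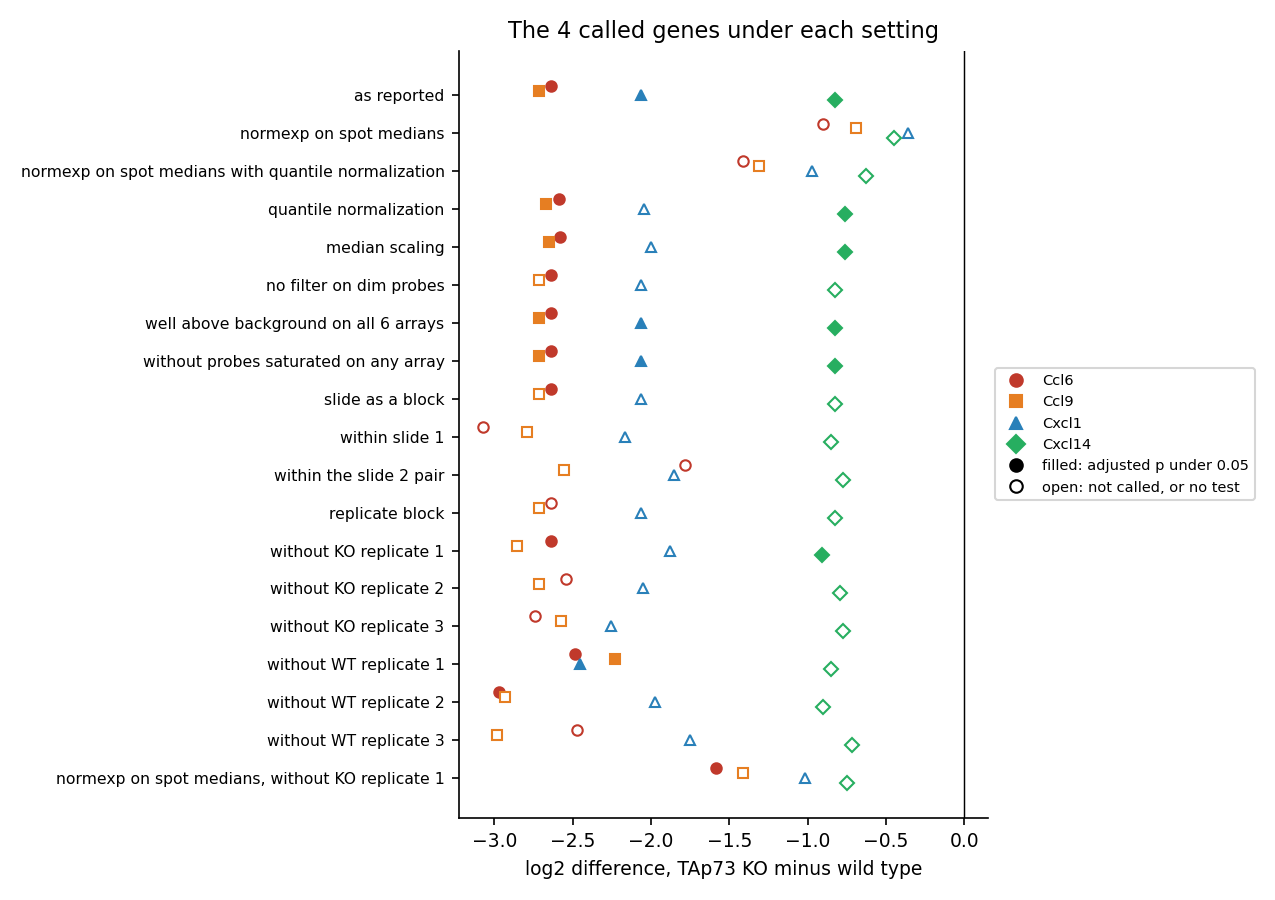
Log2 difference of TAp73 KO minus wild type (horizontal axis) of the 4 called genes under the processing settings run on the scanner files, 1 row per setting, with filled symbols where the adjusted p was under 0.05. Differences stayed below 0. All 4 were open under normexp, under normexp with quantile normalization, within slide 1 and with a replicate block. They were also all open without TAp73 KO replicate 2, TAp73 KO replicate 3 or wild type replicate 3. The slide 2 pair has no test.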

How the data were processed

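Whole-testis RNA of 3 TAp73 KO and 3 wild type mice was hybridised to 1 array per mouse. The scanner files come from Feature Extraction 10.7.3.1 on an mm9 design, per the file headers, and the values used are linear spot intensity after background subtraction, as deposited. The deposited series value table is also intensity on a linear scale, with normalization not given in the sources used here. Control spots were dropped and flagged spots (163 to 280 per array) were set to missing. Replicate spots of a probe were averaged on the log2 scale, and values were taken relative to the 75th percentile of their array. Between 74.4% and 84.4% of probes exceeded background clearly, 1.59% to 4.45% were saturated, and the 6 arrays limit the precision.

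Probes were named through RefSeq accessions (GRCm38.p6), which named 26055 of 39429 probes. Those well above background on at least 3 arrays, with at least 2 values per group, entered a two-sided limma fit (version 3.58.1, R 4.3.3, lmFit then eBayes) with genotype as the only term. The replicate labels stand for separate mice, and p-values measure the spread between them. The brightest complete probe stood for a gene. Lists covered chemokine signalling, chemokine inducers, macrophages, dendritic cells, lymphocytes, neutrophils and mast cells, platelets and red cells, endothelium, Sertoli, Leydig, myoid, germ and epididymal cells.

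The genes and lists were chosen with earlier results of these data known. Named genes were all called ones, the next 12 by p, the 3 brightest per role, and up to 6 called genes of each pathway list; other chemokine genes were added to account for the family. Alternatives were normexp background correction (offset 50), quantile and median scaling, other filters on dim or saturated probes, slide and replicate blocks, the value table, and leaving out each array. Normexp was planned on spot means; the files hold spot medians, which were used instead. The fit was tested on simulated data. Ccl21c, Ccl21d, Ccl27b and Cxcl11 were not analysed here, and some further genes are not reported here.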

Additional observations from a re-analysis of the deposited data

Results flagged for a closer look

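Ccr4, a receptor of regulatory and helper T cells, stood outside the tested probes but gave signal in TAp73 KO testes. Its probe read 51.4, 24.1 and 17.5 processed units in TAp73 KO testes, against 11.6, 17.9 and 28.1 units in wild type testes. It was well above background on 2 TAp73 KO arrays and on 0 wild type arrays. The genotypes overlapped, the highest array was TAp73 KO replicate 1, and the difference was not tested.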

How the results depend on the processing

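The count of 4 chemokine and receptor genes called lower became 0 under normexp, normexp with quantile normalization, within slide 1 and the replicate block, 1 with no filter on dim probes or with slide as a block, and 2 with normexp without TAp73 KO replicate 1, a setting chosen after seeing the data (Ccl6 and Ccl8, so 1 of the 4). It was 3 under quantile normalization and median scaling, where Cxcl1 was lost, and 5 among probes well above background on all 6 arrays, where Ccl8 was gained (adjusted p = 0.0343 in limma). It was 0 to 4 when single arrays were left out: 0 without TAp73 KO replicate 2, TAp73 KO replicate 3 or wild type replicate 3, 1 without wild type replicate 2, 2 without TAp73 KO replicate 1 and 4 without wild type replicate 1, where Cxcl14 was lost and Ccl2 gained. The count called higher, 0, became 1 under quantile normalization and under median scaling (Ccr6). The median of -0.22 became 0.30 under normexp, -0.076 with quantile normalization added and -0.087 under normexp without TAp73 KO replicate 1; it was -0.296 to -0.072 when single arrays were left out, being -0.096 without wild type replicate 3 and -0.072 without TAp73 KO replicate 3. Under normexp, 0 of all probes were called lower, the median of all probes was 0.21, and the lower quartile of log2 signal was 9.29 in TAp73 KO replicate 1 and 6.80 to 7.33 in the other arrays; the cause was not tested. Without that array, normexp called 313 probes lower. Differences under normexp were -0.90 for Ccl6, -0.69 for Ccl9, -0.36 for Cxcl1 and -0.45 for Cxcl14, and those of Il17ra (0.16) and Tnfrsf1b (0.28) reversed. Of the 39 uncalled chemokine and receptor genes, 18 changed from a negative to a positive difference under normexp. Without TAp73 KO replicate 1, normexp gave -0.366 for Ccl2, -0.297 for Ccl24, -0.187 for Ccr2, -0.087 for Cxcr4 and -0.025 for Cxcr3. Values in that setting for the other genes whose sign changed are not given here. Counts over all probes were 838 lower as reported, 299 with slide as a block, 349 with no filter on dim probes, 405 under normexp with quantile normalization and 117 to 418 when single arrays were left out. The replicate numbers only name the samples (correlations of same-numbered deviations were -0.025, -0.082 and -0.09), and with the replicate block 9 of all probes stayed called lower and Ccl6 had an adjusted p of 0.0743 in limma.

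The count of 5 called pathway genes became 0 under normexp, within slide 1, with the replicate block and under normexp without TAp73 KO replicate 1, 1 with no filter or slide as a block, 2 under normexp with quantile normalization, 3 under median scaling and 0 to 2 when single arrays were left out, where the 1 gene called without TAp73 KO replicate 1 or 3 was not among the 5. Their list's median of -0.09 became 0.17 under normexp, -0.041 with quantile normalization added, -0.025 under median scaling, -0.026 under normexp without TAp73 KO replicate 1, -0.053 on slide 1 alone and -0.171 for the pair on slide 2.

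Under the value table's own labels, 1 chemokine or receptor gene was called lower (Ccr6, -0.33) and 3 higher, with a median of 0.19, and 0 pathway genes were called lower and 6 higher, with a median of 0.069. Reversed differences there were Ccl6 2.59, Ccl9 2.67, Cxcl1 2.05, Cxcl14 0.76, Coro1a 0.50, Rgs2 0.60, Prkx 0.48, Gnai1 0.43, Jak2 0.40, Nfkb2 1.08, Il17ra 1.08, Il1r1 1.10, Tnfrsf1b 1.19, Il10ra 0.73 and Tnfrsf1a 0.57. On the scanner files, the 4 called genes kept their sign in 72 of 72 values and the 39 others in 630 of 692.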

Other observations

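Among the somatic cells of the testis that can also make chemokines, 4 of 19 measured Sertoli cell genes were called lower and 0 higher (median -0.43), and 3 of 14 Leydig cell genes were lower and 0 higher (median -0.19). The shares called lower were 21.1% and 21.4%, beside 3.53% of all measured genes called lower and 0.218% called higher. Over the 16 Sertoli cell genes not saturated on any array, the summed scaled signal was 2838% to 2965% in TAp73 KO testes and 3841% to 4063% in wild type testes, and Aard was the brightest of them. Of 10 peritubular myoid genes 1 was lower (10%, median -0.004) and of 8 epididymal genes 1 was lower (12.5%, median 0.04). None of the 16 germ cell genes was called in limma, and their median was 0.23. At p under 0.05 without correction 1 was lower and 6 higher, beside 13.6% lower and 2039 of 16947 higher among all genes. The Leydig count was 0 when any single array was left out, and the Sertoli count was 0 without TAp73 KO replicate 2 or any 1 wild type array, 3 without TAp73 KO replicate 1 (2 of the 4 among them) and 1 without TAp73 KO replicate 3, which was not one of the 4. With slide as a block the Sertoli count was 1 and the Leydig count 0.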
